A study of Mus musculus with 6 samples.

Results

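Transcripts of 9 transcription factors were examined, the interferon regulatory factors Irf1, Irf2, Irf3, Irf7, Irf8 and Irf9 and the signal transducers Stat2, Stat3 and Stat6. They were chosen by name from 24982 genes listed in the authors' deposited table, and all 9 were among its 14835 genes with an adjusted p. The cells were cumulus granulosa cells, the somatic cells that surround the oocyte, from mice of the Kun-Ming strain, an outbred stock. Short hairpin RNAs against Atg5, a gene of the autophagy conjugation machinery, were transfected per the labels' protocols, and 3 libraries labelled Atg5-KD were set against 3 libraries labelled control. The labels name neither the treatment of the control cells nor separate cultures or animals behind the replicates. The p-values therefore describe the spread among 6 libraries, and that spread may be only technical. The table compares both groups and holds no value for a single library.

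Interferon regulatory factors bind DNA through a shared helix-turn-helix domain that reads repeats of GAAA, and STAT proteins are latent cytoplasmic factors that kinases of the JAK family phosphorylate at a cytokine receptor. Sensors of foreign or misplaced nucleic acid activate IRF3 and IRF7, which switch on interferon genes. Secreted type I interferon then activates ISGF3, a complex that holds STAT2 and IRF9 and binds interferon-stimulated response elements, whereas interferon gamma acts on GAS elements. In many cell types Irf3 is made constitutively and Irf7 is itself an interferon-stimulated gene.

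The name of the table puts KO before CTr, and fold changes were taken to run that way, as Atg5-KD over control. Sample titles likewise read ko and ctr, although the labels' protocols describe short hairpin RNAs. The targeted transcript did not pass the test, so it gives no check of this direction, and no knockdown of Atg5 RNA was seen. Atg5 stood at -0.06 ± 0.14 (SE) on the log2 scale by the authors' deposited table (adjusted p = 0.822 by the Wald test, 95% interval from -0.34 to 0.21). Values written with ± and SE are log2 fold changes of Atg5-KD over control throughout. The groups are called by their labels, and if the order were turned each rise below would be a fall. The ribosomal RNA locus Rn45s took 10.4% of the summed base means and stood at 4.24 on the log2 scale by the authors' deposited table. Scaling both groups to all counted reads instead of the authors' size factors lowers every log2 fold change by 0.299. This shift is set by the summed estimated means, 16031900 normalized counts in the libraries labelled Atg5-KD and 13030800 in control. Rn45s is part of both sums, so every value on that scale below includes this locus, and the shift without it was not computed. The 2 most abundant granulosa and cumulus markers were Gja1, a gap junction protein, and Inha, the inhibin alpha subunit. Their base means were 37682 and 30063 normalized counts in the authors' deposited table. Others of this list were low there, with base means of 22.1 for Has2, 9.78 for Ptx3 and 6.07 for Amh. Of 19 tested granulosa and cumulus markers 3 were higher and 7 lower by the authors' deposited table, and Cyp19a1, the aromatase of estrogen synthesis, had a base mean of 2.34 normalized counts. Markers of theca and stroma were lower for 7 of 8 and higher for 0, and those of smooth muscle lower for 8 of 10 and higher for 1, by the authors' deposited table, where 0 of 8 endothelial and 0 of 7 oocyte markers were called. The part of these other cell types in the values of the members was not tested. Library totals are not in the table, and the depth per library is unknown.

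The promoter windows of the 3 members that rose, Irf7, Irf9 and Stat2, are shown here beside those of Irf1 and Irf2, 2 members that did not pass the test, since the family both reads and carries interferon elements. Each is a RefSeq window of GRCm38.p6, the build called mm10 in the submitters' processing notes, running from 250 bases before to 50 bases after an annotated start on the strand of the gene. The windows lie at chr7:141266375-141266674 on the minus strand for Irf7 and, all on the plus strand, at chr14:55603735-55604034 for Irf9, chr10:128270248-128270547 for Stat2, chr11:53769764-53770063 for Irf1 and chr8:46739495-46739794 for Irf2. Capitals mark exact matches, on either strand, to the core of the interferon-stimulated response element (GAAANNGAAA), to the GAS core (TTCNNNGAA) or to the wider form that STAT6 prefers (TTCNNNNGAA).
Irf7: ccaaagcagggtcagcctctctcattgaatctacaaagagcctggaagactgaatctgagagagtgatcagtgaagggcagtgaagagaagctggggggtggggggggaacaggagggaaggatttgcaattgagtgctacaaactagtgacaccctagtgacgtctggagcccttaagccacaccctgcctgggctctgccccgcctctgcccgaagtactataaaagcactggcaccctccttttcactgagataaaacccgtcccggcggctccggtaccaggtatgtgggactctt
Irf9: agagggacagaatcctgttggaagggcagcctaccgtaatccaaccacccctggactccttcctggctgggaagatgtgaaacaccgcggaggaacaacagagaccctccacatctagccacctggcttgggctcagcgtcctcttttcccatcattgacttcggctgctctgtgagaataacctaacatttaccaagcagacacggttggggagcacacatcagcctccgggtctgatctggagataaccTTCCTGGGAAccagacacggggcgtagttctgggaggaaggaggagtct
Stat2: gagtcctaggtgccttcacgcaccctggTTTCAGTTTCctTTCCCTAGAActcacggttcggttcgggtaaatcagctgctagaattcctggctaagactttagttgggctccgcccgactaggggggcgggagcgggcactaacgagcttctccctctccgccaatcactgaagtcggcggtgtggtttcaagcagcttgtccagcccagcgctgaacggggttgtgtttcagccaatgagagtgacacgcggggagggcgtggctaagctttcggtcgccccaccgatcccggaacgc
Irf1: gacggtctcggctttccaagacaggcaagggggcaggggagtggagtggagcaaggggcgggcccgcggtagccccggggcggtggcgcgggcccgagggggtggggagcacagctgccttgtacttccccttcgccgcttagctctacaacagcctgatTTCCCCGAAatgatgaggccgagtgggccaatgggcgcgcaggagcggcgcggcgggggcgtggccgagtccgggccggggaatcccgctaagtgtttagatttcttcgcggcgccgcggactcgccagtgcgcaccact
Irf2: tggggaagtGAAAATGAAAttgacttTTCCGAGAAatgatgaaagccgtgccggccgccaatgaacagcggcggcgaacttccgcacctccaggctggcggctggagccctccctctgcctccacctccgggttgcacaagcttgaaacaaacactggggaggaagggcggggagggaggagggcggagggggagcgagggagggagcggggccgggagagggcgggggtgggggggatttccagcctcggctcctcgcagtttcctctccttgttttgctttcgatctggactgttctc

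Of the 3 members that rose, Stat2 alone held an exact match to the response element core, on the minus strand from position -222 to -213 counted from the annotated start as 1. The matched stretch reads cctggTTTCAGTTTCctttc on the strand of the gene, and a match to the STAT6 form follows it from -210 to -201. The Irf7 window held none of the 3 motifs, and of 2 windows of Irf9 the first held a STAT6 form from 2 to 11 and the second none. The start used for Irf7 lies inside the annotated span of the gene, so part of its upstream stretch is within the gene. The same holds for the windows of Stat3 and Stat6. Irf2 also had a response element core, gaagtGAAAATGAAAttgac from -241 to -232, together with a GAS core from -224 to -216. Irf1 carried a GAS core, ctgatTTCCCCGAAatgat from -90 to -82, in the first of its 2 windows. The first window of Irf8 carried 2 GAS cores, from -171 to -163 and from -153 to -145, and the windows of Irf3, Stat3 and Stat6 held none of the motifs. The response element core was present in 2 of 12 windows of the members and in 3.44% of all 32851 RefSeq promoter windows, the GAS core in 8.30% and the STAT6 form in 6.95%. Counted per gene, the response element core was held by 3.99% of all 27025 genes with a window. Among the ISGF3 target genes 9 of the 17 with a window held it, as did 10 of 16 of the genes driven by IRF1 or GAS elements. It was also held by 84 of 1187 genes called higher, 50 of 1182 called lower and 283 of 9096 not called. The GAS core was held by 5 of these 17 ISGF3 target genes and by 5 of the 16 driven by IRF1 or GAS elements. With any 1 mismatch allowed, 4 of the 12 member windows (33.3%) and 35.4% of all windows held the response element core. No exact matches overlapped each other. A match is a stretch of letters and says nothing of binding, and no match refers to these windows only.

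**Figure D1:**
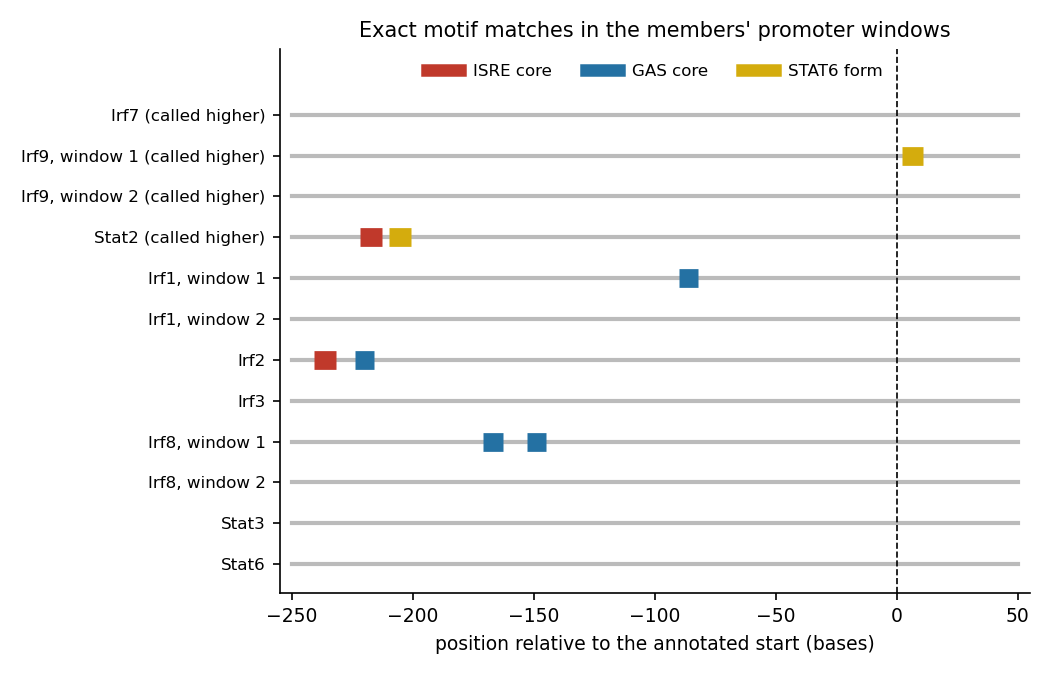
Exact motif matches in the RefSeq promoter windows of the 9 members, from 250 bases before to 50 bases after the annotated start (dashed line, x axis in bases). Red bars are response element cores, blue bars GAS cores and yellow bars STAT6 forms. A response element core is seen in Stat2, called higher, and in Irf2, which was not called, and none in Irf7 or Irf9.

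Of the 9 members, 3 were higher and 0 lower in the libraries labelled Atg5-KD at a Wald adjusted p under 0.05 in the authors' deposited table, where 20.9% of all tested genes were called, 10.4% higher and 10.5% lower. The 3 were Irf7, Irf9 and Stat2, so 2 of 6 IRF genes and 1 of 3 STAT genes rose. At an unadjusted p under 0.05 in the authors' deposited table, Stat3 was also higher and Irf8 lower. The median log2 fold change of the 9 members was 0.07, against 0.00417 over all tested genes in the authors' deposited table. The lowest 95% interval bound among the 3 that rose was 1.23, and the highest bound among the other 6 was 0.40, computed from the authors' deposited table. The members were sorted by these same values, so the gap between the bounds describes the calls and is no separate test. Scaled to all counted reads, the same 3 were higher and Irf3, Irf8 and Stat6 were lower.

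**Figure D2:**
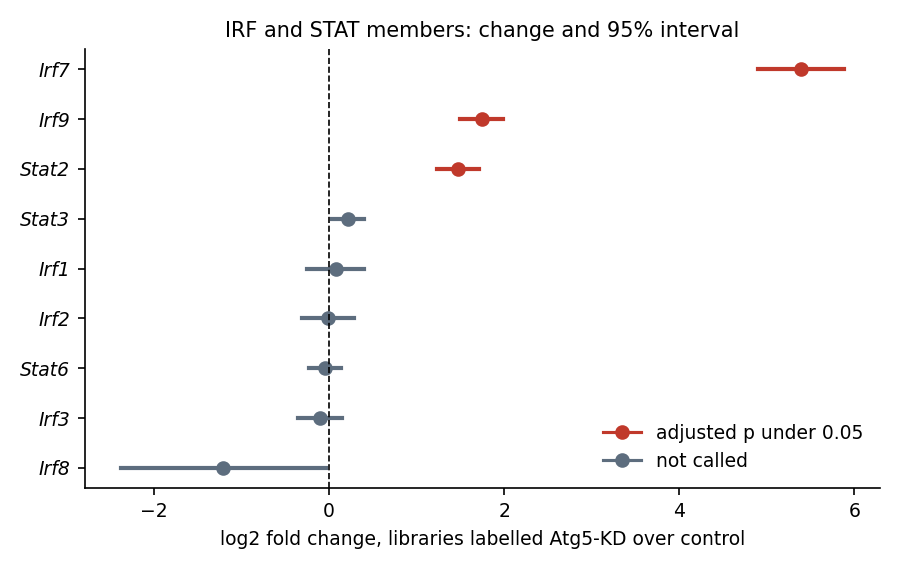
Log2 fold change of each member, libraries labelled Atg5-KD over control (x axis), with its 95% interval from the deposited standard error. Irf7, Irf9 and Stat2, in red, lie above 1.23 with their whole interval, and those of the other 6, in grey, reach at most 0.40.

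The factors that act below nucleic acid sensors parted most. Irf7, the amplifier of interferon production, had an estimated mean of 665 normalized counts in the libraries labelled Atg5-KD and 15.8 in control, from the authors' deposited table. The authors' deposited table put the log2 fold change of Irf7 at 5.39 ± 0.25 (SE), a 42.0-fold rise with a 95% interval from 29.9-fold to 58.8-fold (adjusted p = 5.59e-101 by the Wald test). Of all tested genes, 15 had a larger log2 fold change and 6 a smaller p in the authors' deposited table. Irf3, its constitutive relative, had estimated means of 794 normalized counts in the libraries labelled Atg5-KD and 854 in control, from the authors' deposited table. By the authors' deposited table its log2 fold change was -0.10 ± 0.13 (SE), and Irf3 did not pass the test (adjusted p = 0.630 by the Wald test). A fall of more than 21.7% or a rise of more than 10.5% lies outside the 95% interval of Irf3, and scaled to all counted reads its value was -0.40 (adjusted p = 0.00517). Irf7 (gene 54123) lies on chromosome 7 from 141263183 to 141266499 and Irf3 (gene 54131) on the same chromosome from 44997648 to 45002848 of GRCm38.p6.

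Both subunits of the ISGF3 complex among the 9 rose. Irf9, its DNA-binding subunit, had estimated means of 752 normalized counts in the libraries labelled Atg5-KD and 225 in control, from the authors' deposited table. The authors' deposited table put the log2 fold change of Irf9 at 1.74 ± 0.13 (SE), a 3.35-fold rise with a 95% interval from 2.82-fold to 3.98-fold (adjusted p = 3.34e-40 by the Wald test). Stat2, which brings the activation domain, had estimated means of 918 normalized counts in the libraries labelled Atg5-KD and 331 in control, from the authors' deposited table. The authors' deposited table put the log2 fold change of Stat2 at 1.47 ± 0.12 (SE), a 2.78-fold rise with a 95% interval from 2.35-fold to 3.28-fold (adjusted p = 5.75e-31 by the Wald test). The 95% intervals of Irf9 and Stat2 overlap, and that of Irf7 lies above both. In the authors' deposited table, 260 tested genes had a larger log2 fold change than Irf9 and 364 a larger one than Stat2. Irf9 (gene 16391) lies on chromosome 14 from 55603985 to 55610030 and Stat2 (gene 20847) on chromosome 10 from 128270498 to 128292853.

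The pair that is known as activator and repressor of interferon gamma responses did not pass the test. Irf1, the activator, which is itself an early target of interferon gamma, had estimated means of 242 normalized counts in the libraries labelled Atg5-KD and 229.8 in control, from the authors' deposited table. By the authors' deposited table it stood at a log2 fold change of 0.07 ± 0.16 (SE), with a 95% interval from -0.25 to 0.40 (adjusted p = 0.814 by the Wald test). Irf2, which competes with Irf1 for the same sites, had estimated means of 236 normalized counts in the libraries labelled Atg5-KD and 237 in control, from the authors' deposited table. By the authors' deposited table Irf2 stood at -0.01 ± 0.15 (SE), with a 95% interval from -0.31 to 0.29 (adjusted p = 0.978 by the Wald test). Both intervals lie inside a 1.5-fold change in either direction, and on the scale of all counted reads Irf1 stood at -0.22, with no call. Irf1 (gene 16362) lies on chromosome 11 from 53770014 to 53778374 and Irf2 (gene 16363) on chromosome 8 from 46739745 to 46847458.

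The STAT factors of other cytokines were abundant and stayed within narrow intervals. Stat3, which acts below interleukin 6 and leukemia inhibitory factor, had estimated means of 2154 normalized counts in the libraries labelled Atg5-KD and 1852 in control, from the authors' deposited table. By the authors' deposited table the log2 fold change of Stat3 was 0.22 ± 0.09 (SE), and it did not pass the test (p = 0.0190, Wald adjusted p = 0.0788). A change of more than 31.9% upward lies outside its 95% interval. Stat6, which acts below interleukins 4 and 13, had estimated means of 1531 normalized counts in the libraries labelled Atg5-KD and 1575 in control, from the authors' deposited table. By the authors' deposited table the log2 fold change of Stat6 was -0.04 ± 0.09 (SE), with a 95% interval from -0.22 to 0.14 (adjusted p = 0.823 by the Wald test). On the scale of all counted reads, Stat6 was called lower at -0.34 (adjusted p = 0.00125), while Stat3 turned to -0.08 and was not called. With the GC and length trend removed Stat6 turned to 0.06 and Irf3 to 0.07, with no call. Stat3 (gene 20848) lies on chromosome 11 from 100886806 to 100939594 and Stat6 (gene 20852) on chromosome 10 from 127642955 to 127660987.

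Irf8, a factor of macrophages, dendritic cells and B cells, was the least abundant member and the least precisely measured. Its estimated means were 8.31 normalized counts in the libraries labelled Atg5-KD and 19.2 in control, from the authors' deposited table. Irf8 had a log2 fold change of -1.21 ± 0.60 (SE) by the authors' deposited table, with a 95% interval from -2.38 to -0.03 (p = 0.0440, Wald adjusted p = 0.145), and Irf8 did not pass the test. On the scale of all counted reads it was called lower at -1.50 (adjusted p = 0.0309). Most tested markers of leukocytes were lower in the authors' deposited table, 12 of 18 with 0 higher and a median log2 fold change of -1.52. Among the others, Cd79a stood at -0.07 and Cd74 at 0.51 (adjusted p = 0.964 and 0.813 by the Wald test). Cd3e, at a base mean of 2.24 normalized counts, stood at 3.98 ± 1.70 (SE) and had no adjusted p. All of these were named after their values were seen. Restricted to base means of 50 or more, 5 of the leukocyte markers and 3 of the myeloid genes below were called lower. The summed estimated mean of the markers was 709 normalized counts in the libraries labelled Atg5-KD and 2611 in control, from the authors' deposited table. Lyz2, the most abundant marker, alone held 335 and 1476 of these sums. Of the 24 markers listed, 6 were not tested, and Nkg7, S100a9 and Ly6g had a base mean of 0 in the authors' deposited table. The part of these markers in the value of Irf8 was not tested, and in bulk libraries fewer cells of a type and less RNA per cell cannot be told apart. Spi1, the partner of IRF8 on myeloid DNA elements, stood at -1.75 ± 0.62 (SE) in the authors' deposited table (adjusted p = 0.0266 by the Wald test). Of 11 tested myeloid genes and partners of IRF8, 6 were lower and 0 higher by the authors' deposited table, with a median of -1.54. Csf1r, the receptor of macrophage growth factor, was at -1.94, the pore-forming Mpeg1 at -1.54, the chemokine receptor Cx3cr1 at -2.12 and the protease Ctss at -1.26 in the authors' deposited table. The remaining gene of the 6 was Cybb, a subunit of the phagocyte oxidase, at -1.12 in the authors' deposited table, where Cybb and Spi1 were named after their values were seen. Csf1r and Mpeg1 stand in both lists. Irf8 (gene 15900) lies on chromosome 8 from 120736358 to 120756694.

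**Figure D3:**
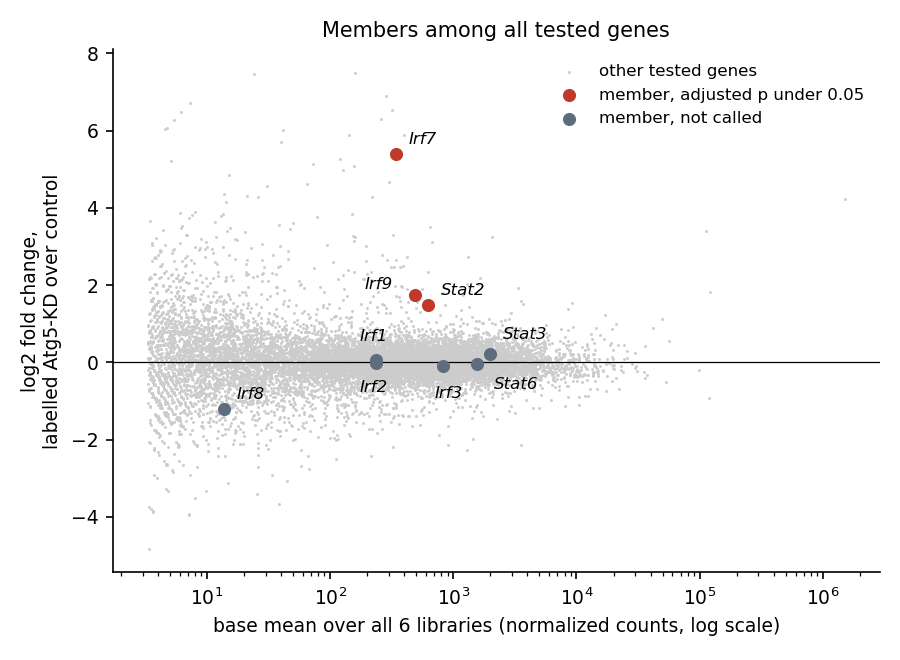
Log2 fold change, libraries labelled Atg5-KD over control (y axis), against the base mean over all 6 libraries in normalized counts on a log scale (x axis), for all 14835 tested genes in light grey and the 9 members in red (adjusted p under 0.05) or dark grey. Irf7 stands at 5.39 among few genes, while Irf8, at a base mean of 13.7, lies in the part of the plot where genes scatter widely.

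The order of the family by level per length differed between the groups. Estimated means were divided by the length of the union of annotated exons in GENCODE M21, in normalized counts per kb. This union takes in the exons of every annotated transcript, 3.776 kb for Irf7 and 5.386 kb for Irf9, and can exceed the length of the transcripts made. The orders, ratios and shares between genes below depend on these lengths, and other lengths were not tried. In the libraries labelled Atg5-KD the order was Stat6 at 348, Irf3 at 231, Stat3 at 226, Irf7 at 176, Stat2 at 155, Irf9 at 139.6, Irf1 at 60.9, Irf2 at 31.9 and Irf8 at 1.18, from the authors' deposited table. In control it was Stat6 at 358, Irf3 at 248, Stat3 at 194, Irf1 at 57.8, Stat2 at 55.8, Irf9 at 41.7, Irf2 at 32.1, Irf7 at 4.20 and Irf8 at 2.71, from the authors' deposited table. The upper 3 and the last kept their places, whereas Irf7 stood just after Stat3 in the libraries labelled Atg5-KD and just after Irf2 in control. Irf7 made up 27.5% of the summed level per kb of the 6 IRF members in the libraries labelled Atg5-KD and 1.09% in control, estimated from the authors' deposited table. The level per kb of Irf7 was 0.763 times that of Irf3 in the libraries labelled Atg5-KD, while in control Irf3 was 59.1 times Irf7. If the groups were turned, these orders and shares would change places with them. With no value per library, whether neighbours in these orders differ beyond their spread was not tested.

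**Figure D4:**
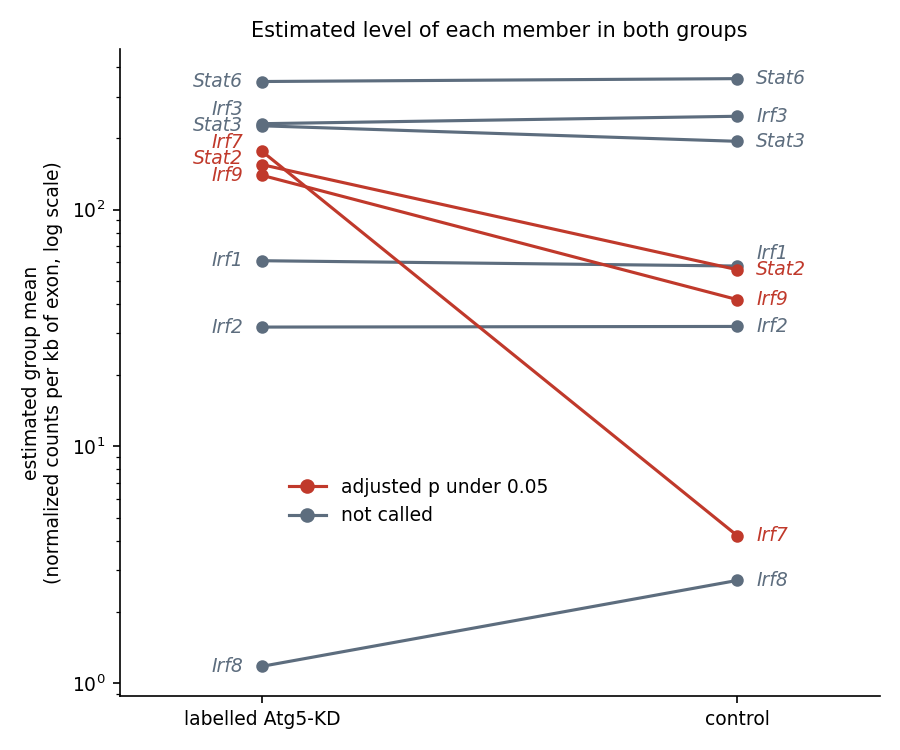
Estimated group means of the 9 members in normalized counts per kb of exon (y axis, log scale), in the libraries labelled Atg5-KD (left) and control (right), joined by a line for each gene. The red lines of Irf7, Irf9 and Stat2 are steep, with Irf7 at 176 in the libraries labelled Atg5-KD and 4.20 in control, and the grey lines other than that of Irf8 are close to level.

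Some members share annotated exon sequence with a neighbour, and no source used here says whether counting used the strand, so reads of a shared stretch cannot be told apart. The gene Phrf1, on the other strand across from Irf7, was at -0.04 ± 0.10 (SE) in the authors' deposited table, and did not pass the test. Rnf31, which overlaps Irf9 on the same strand, was at 0.32 ± 0.13 (SE) in the authors' deposited table (adjusted p = 0.0639 by the Wald test). Bcl2l12, across from Irf3, was at -0.26 ± 0.15 (SE) and Nab2, across from Stat6, at -0.34 ± 0.12 (SE) in the authors' deposited table, of which Nab2 passed the test (adjusted p = 0.0303 by the Wald test). Stat5a, across from Stat3, is given below. Irf1 overlaps an annotated gene of the other strand that the table does not list by that name.

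Other genes of both families were taken from a list of 8 that included IRF2-binding proteins, of which 6 were tested, 2 higher and 1 lower by the authors' deposited table. The higher ones were Stat5a and Stat5b, which act below prolactin and growth hormone. Stat5a was at 0.41 ± 0.10 (SE) and Stat5b at 0.41 ± 0.10 (SE) in the authors' deposited table (adjusted p = 0.000440 and 0.000240 by the Wald test). Their base means of 4475 and 3067 normalized counts in the authors' deposited table were above that of every member. Scaled to all counted reads, 0 genes of this list were higher and 3 were lower. Irf2bp1, a co-repressor that binds IRF2, was lower at -0.46 ± 0.11 (SE) in the authors' deposited table (adjusted p = 0.000265 by the Wald test), a call that ended once the trend with GC content and length was removed. Its relatives Irf2bp2 at 0.00104 ± 0.11 (SE) and Irf2bpl at -0.11 ± 0.14 (SE) in the authors' deposited table did not pass the test. Irf5 at 0.04 ± 0.22 (SE) in the authors' deposited table did not pass it either (adjusted p = 0.936 by the Wald test). Irf4, a factor of lymphocytes, and Stat4 had base means of 2.59 and 2.36 normalized counts in the authors' deposited table and no adjusted p.

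Upstream of IRF3 and IRF7, 4 nucleic acid sensors and 1 kinase rose, and most of the list did not pass the test. Of 21 tested activators, 5 were higher and 1 lower by the authors' deposited table, with a median log2 fold change of 0.20. Over all tested genes 10.4% were higher and 10.5% lower. The higher ones were the RNA sensors Ifih1 at 3.30 ± 0.17 (SE), Ddx58 at 3.12 ± 0.14 (SE) and Dhx58, which rose 4.29-fold, the endosomal receptor Tlr3 at 1.41 ± 0.45 (SE) and the kinase Tbk1 at 0.31 ± 0.11 (SE) in the authors' deposited table. The sensors Tlr7 at -1.12 and Mb21d1 (cGAS) at 0.49 on the log2 scale by the authors' deposited table did not pass the test (adjusted p = 0.353 and 0.453). Tbk1, which phosphorylates IRF3, Tlr7 and Mb21d1 were named after their values were seen. Ifih1 is also counted among the ISGF3 target genes below, so these lists are not separate. Irak1, a kinase of Toll-like receptor signalling, was lower at -0.27 ± 0.09 (SE), and Ikbkg, the NEMO subunit, stood at 0.26 ± 0.11 (SE) without passing the test, in the authors' deposited table. With all counted reads as the scale, 5 activators were lower. Without the trend with GC content and length 3 were higher and 0 lower. The interferon genes themselves were barely detected, with 0 of 11 tested, 6 at a base mean of 0 and the others at most at 1.55 normalized counts in the authors' deposited table, among them Ifnb1 at 0.444.

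Between the interferons and the STAT factors, most receptors and kinases did not pass the test. Of 10 tested, 2 were higher and 0 lower by the authors' deposited table, with a median of 0.00485. They were Il10rb, a chain of the interferon lambda and interleukin 10 receptors, at 0.45 ± 0.10 (SE), and Ifnar1, a chain of the type I interferon receptor, at 0.24 ± 0.09 (SE, Wald adjusted p = 0.0472) in the authors' deposited table. The count fell to 1 when log2 fold changes were centred on the median of all tested genes, and scaled to all counted reads 0 were higher and 6 lower. Jak1, the most abundant of these genes, stood at -0.22 ± 0.09 (SE) in the authors' deposited table and did not pass the test. Among 17 inhibitors of STAT signalling 2 were higher and 4 lower by the authors' deposited table, with a median of 0.04. Usp18, which blocks the type I receptor, had the smallest p of all genes in the table and was at 5.89 ± 0.26 (SE), and Cish, a target of STAT5, was at 0.47 ± 0.15 (SE) in the authors' deposited table. Usp18 is also counted among the ISGF3 target genes below. Lower were Socs3, the feedback inhibitor of STAT3 signalling, at -0.70 ± 0.17 (SE), Pias3 at -0.42 ± 0.14 (SE), Pias4 at -0.33 ± 0.11 (SE) and the phosphatase Ptpn1 at -0.29 ± 0.10 (SE) in the authors' deposited table, of which Pias4 and Ptpn1 were named after their values were seen. With all counted reads as the scale 1 inhibitor was higher and 8 were lower, and without the trend with GC content and length 1 was lower.

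Downstream, the listed ISGF3 target genes rose, as did most of those listed as driven by IRF1 or GAS elements. Both lists were chosen with earlier results of these data known, so their counts are no independent support, and binding was not measured. All 25 ISGF3 target genes tested were higher in the authors' deposited table, where 10.4% of all tested genes were higher. Their median log2 fold change was 4.27, with a range from 0.54 to 7.49. Bst2, the virus tether, was the most abundant of them and had the smallest change at 0.54 ± 0.10 (SE) in the authors' deposited table, and Ifi27, the next in abundance, was at 2.18 ± 0.13 (SE). The apoptosis regulator Xaf1 was at 4.67 ± 0.23 (SE) and Oasl2, of the oligoadenylate synthetase family, at 3.51 ± 0.16 (SE) in the authors' deposited table. Of 22 tested genes driven by IRF1 or GAS elements, 16 were higher and 0 lower by the authors' deposited table, with a median of 1.99, while Irf1 itself stood at 0.07. Among them Gbp3, a guanylate-binding protein, was at 3.85 ± 0.24 (SE), Irgm1 at 2.34 ± 0.12 (SE), the chemokine Cxcl10 at 5.08 ± 0.29 (SE) and Gbp7 at 3.02 ± 0.21 (SE) in the authors' deposited table. B2m, the light chain of MHC class I, rose 2.98-fold and the peptide transporter subunit Tap2 1.33-fold in the authors' deposited table. Many genes of this list also answer to type I interferon, and the lists are not exclusive to 1 factor.

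Genes of the STAT3 and STAT6 pathways were called in both directions, beside 10.4% of all tested genes higher and 10.5% lower. Whether the counts of these lists differ from those shares was not tested. Of 24 tested STAT3 pathway and target genes, 5 were higher and 5 lower by the authors' deposited table, with a median of 0.07. The ligands Il6 at 1.72 ± 0.61 (SE) and Lif at 0.80 ± 0.20 (SE), the acute phase gene Saa3 at 0.66 ± 0.24 (SE), the protease inhibitor Timp1 at 0.53 ± 0.14 (SE) and Hif1a at 0.30 ± 0.08 (SE) were higher in the authors' deposited table. The immediate early gene Fos at -1.40 ± 0.13 (SE), the kinases Pim3 at -0.79 ± 0.11 (SE) and Pim1 at -0.61 ± 0.14 (SE), Myc at -0.25 ± 0.09 (SE) and Socs3, given above, were lower in the authors' deposited table. Il6, Lif, Saa3 and Timp1 were named after their values were seen. On the scale of all counted reads 2 were higher and 10 lower. Of 10 tested STAT6 pathway and target genes, 2 were higher and 1 lower by the authors' deposited table, with a median of -0.27. Ccl17, a chemokine induced by STAT6, was at 0.58 ± 0.16 (SE) and Cish, given above, was also higher, whereas Mrc1, the mannose receptor of macrophages, was at -2.08 ± 0.47 (SE) in the authors' deposited table. Il4ra, the receptor chain that recruits STAT6, stood at 0.28 ± 0.13 (SE) in the authors' deposited table without passing the test. With all counted reads as the scale, 0 of the STAT6 list were higher and 3 lower.

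**Figure D5:**
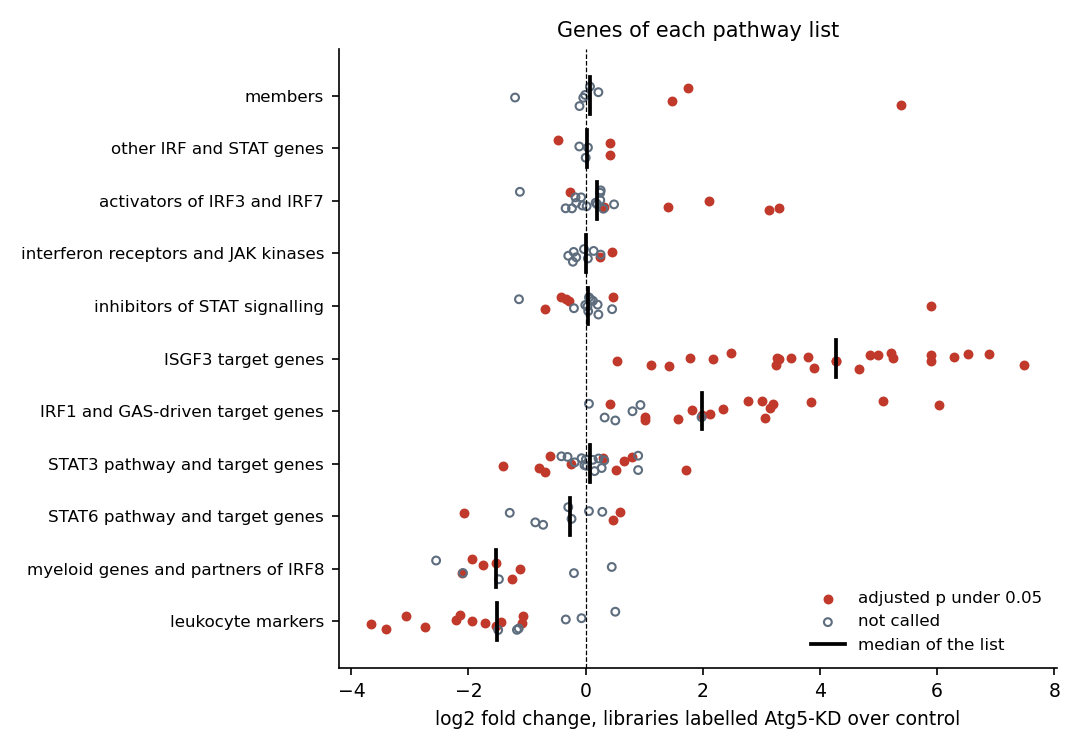
Log2 fold change of every tested gene in each list, libraries labelled Atg5-KD over control (x axis), filled red where the adjusted p was under 0.05 and open where not, with a black bar at the median of the list. The listed ISGF3 target genes centre on 4.27, leukocyte markers on -1.52, and receptors and JAK kinases on a value close to 0.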

How the data were processed

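Poly(A) RNA of mouse cumulus granulosa cells was sequenced in 3 libraries labelled Atg5-KD and 3 labelled control. Tools named in the submitters' processing notes, with no role or order, are DESeq2 1.30.1, StringTie 2.1.4, STAR and featureCounts 1.6.2, with the build mm10. The labels' protocols describe both an RNA library kit and a kit for preamplified cDNA without saying which library had which, and the effect of this on the values was not tested. The single table is the authors' own comparison. Per the file headers it gives a base mean, a signal in normalized counts (counts over size factors, averaged over libraries, as the tool's column name is defined). Log2 fold changes with standard errors were deposited by the authors, as were the Wald score behind each test, the p-value and the adjusted p-value. When score, p-value and Benjamini-Hochberg adjustment were recomputed, 0 rows departed from the deposited values by more than 1e-06.

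The test planned for counts per library could not be run, and the deposited Wald test over all 14835 tested genes was used, with a gene called at an adjusted p under 0.05. Group means were estimated from the base mean and the fold change, assuming that the fold change is the ratio of both group means, and have no SD. Intervals of 95% are the log2 fold change with its standard error under a normal distribution. Functions were tested on simulated data. Positions, gene identifiers and promoters are from RefSeq GRCm38.p6, where all 9 members matched by symbol, and exon lengths and GC content from GENCODE M21, where 98.7% of tested genes matched. Python 3.11.15, scipy 1.17.1, pandas 2.3.3 and matplotlib 3.10.9 were used.

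The members and gene lists were chosen with earlier results of these data known. Named genes are the members, the other IRF and STAT genes, and in each list up to 4 genes with the smallest adjusted p and the 2 of highest base mean, of which not all are printed, and other genes named outside this rule are marked in the text. Cyp19a1, Has2, Ptx3, Amh, Ifnb1, Nkg7, S100a9 and Ly6g fall outside the rule and were named for their low base means after these were seen. Genes that share exons with a member were named for that position. Some genes of these pathways are not reported here. With 1 comparison, no likeness of pattern across samples was measured.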

Additional observations from a re-analysis of the deposited data

How the results depend on the processing

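Of 80 member values under 9 alternatives, 73 kept their direction and their side of the threshold. Irf3, Irf8 and Stat6 became calls when scaled to all counted reads, a shift that rests largely on the locus Rn45s. The sign turned, with no call on either side, for Irf1 (-0.225) and Stat3 (-0.0814) on that scale, and for Irf3 (0.0702) and Stat6 (0.0630) with the GC and length trend removed. Over these alternatives Irf7 ranged from 3.50 (with shrinkage by a normal prior) to 5.54, Irf9 from 1.44 to 1.75 and Stat2 from 1.17 to 1.51 on the log2 scale, with adjusted p of at most 4.18e-65, 2.80e-17 and 8.59e-11. Irf8, at a base mean of 13.7, has no value where only base means of 50 or more are kept, and its low count limits what can be said of it.

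Scaled to all counted reads, 534 of all tested genes were higher and 5735 lower, against 1541 and 1559, and 3 members were lower against 0. In that setting 0 other IRF or STAT genes were higher and 3 lower, 5 activators lower, 0 receptors and kinases higher and 6 lower, 1 inhibitor higher and 8 lower, 2 STAT3 genes higher and 10 lower, and 0 STAT6 genes higher and 3 lower. With the GC and length trend removed 905 genes were higher, and counts were 0 lower among other IRF and STAT genes, 3 higher and 0 lower among activators, 1 higher and 1 lower among receptors, 1 lower among inhibitors, 3 lower in the STAT3 list and 1 higher in the myeloid list. Under Benjamini-Yekutieli adjustment 870 genes were higher and 875 lower, with 3 activators higher and 0 lower, 1 receptor higher, 1 inhibitor higher and 1 lower, 3 STAT3 genes higher and 1 STAT6 gene higher. Against a minimum of 1.5-fold 187 genes were higher and 115 lower, with 0 higher and 0 lower of the other IRF and STAT genes, 3 and 0 of activators, 0 higher of receptors, 1 and 0 of inhibitors, 0 and 1 of the STAT3 list, 0 and 0 of the STAT6 list, 2 lower of the myeloid list and 7 lower of leukocyte markers. Adjusted over base means of 50 or more, 0 STAT6 genes, 3 myeloid genes and 5 leukocyte markers were lower, since fewer genes are tested there. Adjusted over every row with a p-value, or centred on the median of all tested genes, 1 receptor was higher. Elsewhere the cause of these changes was not tested. The 3 members called higher and the 25 ISGF3 and 16 IRF1 or GAS target genes stayed within 1.5 times their count in all settings run.

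With 1 mismatch allowed the response element core was in 35.4% of windows, against 3.44%, and in 4 of 12 member windows, against 2. No paired analysis was possible because the table holds no values per library, and for the same reason leaving out a library and fits with other tools were not run.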
